A study of Bos taurus with 4 samples.

Results

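The 10 genes described here encode signals that the supporting tissue of the gut sends to the intestinal crypt, and 1 factor of the cells that send them. They are the Wnt ligands WNT2B, WNT3 and WNT5A, the R-spondins RSPO1 and RSPO3, the bone morphogenetic proteins BMP4 and BMP5, their antagonist GREM1, the growth factor NRG1 and the transcription factor FOXL1. They were chosen by gene symbol and are 10 of the 29792 rows of the count files, each present once in every file. The question was which of these signals the intact intestine holds and cultured organoids lack.

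The data were QuantSeq 3′ mRNA counts, which are reads from the 3′ ends of polyadenylated RNA, of Hanwoo cattle over 24 months old. There were 4 libraries, 1 each of intestine (spelled Bovine Intesine in the labels), of muscle (the control tissue of the study), and of intestinal organoids at passage 5 (P5) and passage 10 (P10). The organoids were grown from jejunal crypts in Matrigel with IntestiCult medium, a commercial organoid medium. The labels do not state which layers of the intestinal wall or which muscle were taken, nor whether the libraries came from the same animal. The libraries held between 12917720 and 17776273 reads, and with 1 library per group no comparison has replicates or a p-value. Levels are given as reads and as CPM (reads per 1000000 reads of the library), and ratios have 95% exact binomial intervals. The intervals hold only the error of counting, not the variation between animals or cultures, because each group has 1 library. Reads copied by PCR from the same molecule are counted separately, so the intervals may be too narrow even for that error.

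Wnt ligands keep crypt stem cells dividing, and R-spondins strengthen the response by sparing Wnt receptors from removal at the cell surface. BMP ligands restrain stem cells and favour differentiation towards the villus, and antagonists made beneath the crypt shield its base from them. Much of this signalling comes from fibroblasts and smooth muscle of the wall, FOXL1 being a marker of subepithelial cells that send it, while WNT3 is also made by Paneth cells in mice.

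The intestine held all 10 genes above 3 reads, the floor used here for detection, and both organoid libraries held much less of nearly all of them. The summed level of the 10 genes was 368 CPM in intestine and 165 CPM in muscle, against 33.6 CPM at P5 and 10.9 CPM at P10. A gene was called different at a ratio of at least 2-fold, with libraries at or below the floor set to it. All 10 genes were called lower in P5 organoids than in intestine, beside 23.7% of the 19341 genes compared, and 0 of 10 were called higher, beside 22.8%. In P10 organoids 9 of the 10 were called lower, beside 28.2% of 18991 genes, and 0 were called higher, beside 26.2%. The exception was WNT3. Called lower in both organoid libraries were 9 of 10, beside 20.4% of all genes, and both comparisons share the 1 intestine library. The median log2 ratio of the 10 genes was -3.99 in P5 and -4.98 in P10 organoids, whereas the median of all genes was 0.11 and 0.08.

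**Figure D1:**
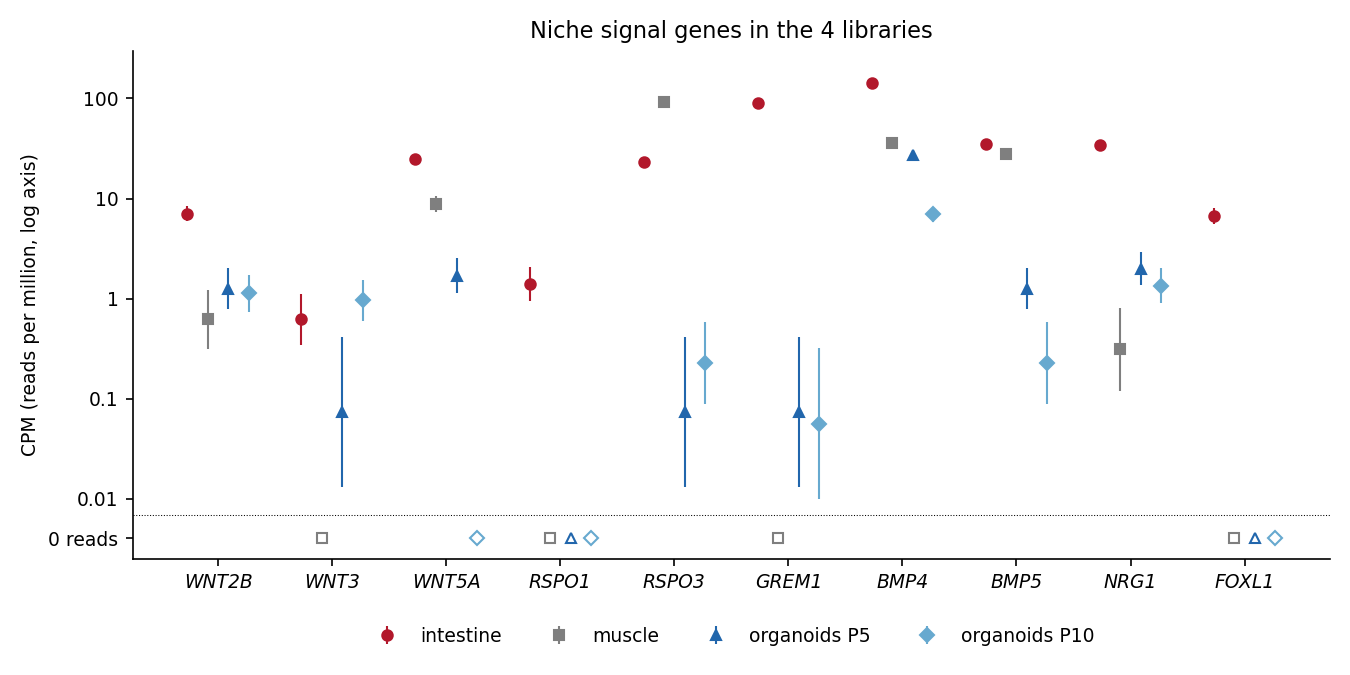
Level of each niche signal gene in the 4 libraries, in CPM on a log axis, with 95% Wilson intervals as bars and open symbols for 0 reads. Intestine is the highest library for 8 of the 10 genes, the exceptions being WNT3 (highest in P10 organoids) and RSPO3 (highest in muscle).

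The ligand WNT2B, which acts through β-catenin and is made by mesenchymal cells of the gut, had 125 reads in intestine (7.03 CPM), 8 in muscle (0.619 CPM), 17 at P5 (1.25 CPM) and 20 at P10 (1.13 CPM). Intestine was the highest, and the organoid libraries kept a low but countable level. The ratio was 5.63-fold lower in P5 (interval 3.38 to 9.96) and 6.23-fold lower in P10 organoids (3.87 to 10.6).

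WNT5A, a ligand of fibroblasts that mostly acts without β-catenin, had 442 reads in intestine (24.9 CPM), 114 in muscle (8.83 CPM), 23 at P5 (1.69 CPM) and 0 at P10. The 4 libraries followed each other in that order, and each neighbouring pair differed by more than its counting error. WNT5A was 14.7-fold lower in P5 organoids (9.67 to 23.4) and, against the floor of 3 reads, at least 147-fold lower in P10 organoids, with an exact interval that reaches down to 119-fold.

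WNT3, a β-catenin ligand, had few reads anywhere. It had 11 in intestine (0.619 CPM), 0 in muscle, 1 at P5 (0.0735 CPM) and 17 at P10 (0.959 CPM). P10 organoids and intestine did not differ beyond counting error, with a log2 ratio of 0.63 (-0.55 to 1.87). P5 organoids were 8.42-fold lower than intestine, but this rests on 1 read and its interval ran from 1.22 to 362. With a floor of 10 reads the log2 ratio of WNT3 in P5 organoids turned from -1.49 to 0.25.

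**Figure D2:**
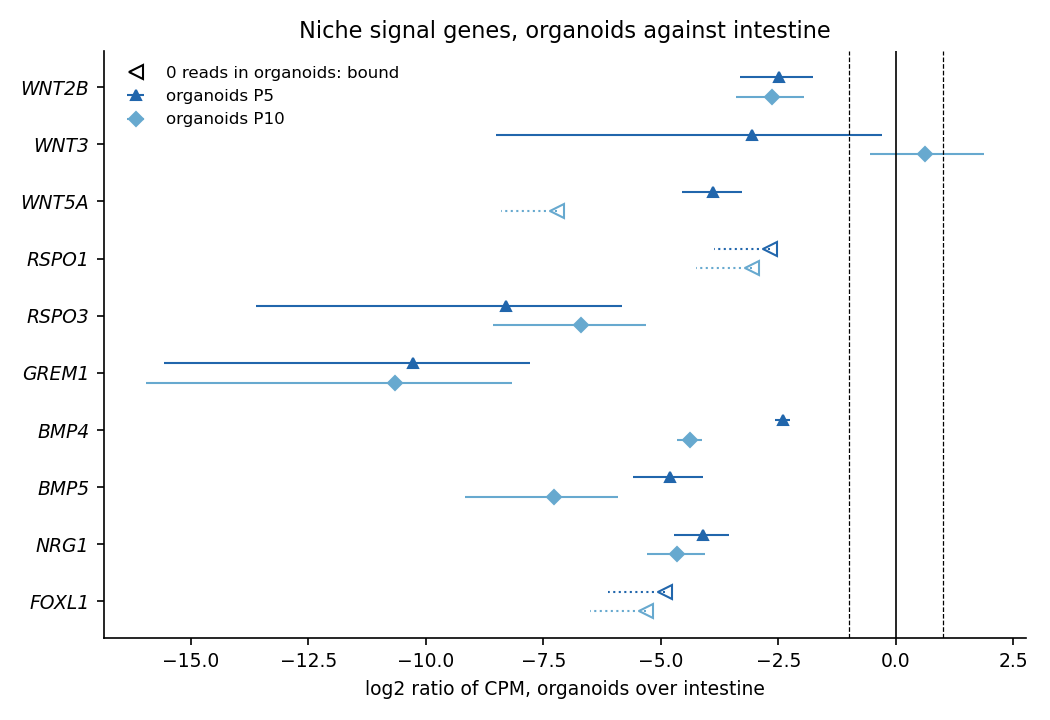
Log2 ratio of CPM, organoids over intestine, for each niche signal gene, with 95% counting intervals as bars, dashed lines at 2-fold and open triangles with dotted lines for bounds where the organoid library had 0 reads. The points lie to the left of 0 except WNT3 in P10 organoids, at 0.63.

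Of the 15 other Wnt ligands, 10 could be compared between P5 organoids and intestine. Of these, 1 was lower, beside 23.7% of all genes, and 3 were higher, beside 22.8%. In P10 organoids 5 of 9 were lower, beside 28.2% of all genes, and 3 were higher, beside 26.2%. These counts depended on the scale, since under quantile normalisation, which gives all libraries the same set of values, 6 of 10 were higher in P5 organoids and 1 of 9 was lower in P10 organoids. The gene of this list with the most reads, named after its values were seen, was WNT5B, a relative of WNT5A. WNT5B had 222 reads in intestine, 257 in P5 and 529 in P10 organoids, and was 1.51-fold (1.26 to 1.82) and 2.39-fold (2.04 to 2.81) higher in the organoids. At P5 the ratio of WNT5B was under the 2-fold threshold, so the 2 WNT5 genes were called in opposite directions only in P10 organoids.

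The secreted Wnt inhibitors bind Wnt proteins or their receptors outside the cell. They were lower in the organoids in 10 of 11 cases at both passages, beside 23.7% of all genes at P5 and 28.2% at P10. SFRP1, which binds Wnt proteins, had 1151 reads in intestine, 85 in P5 and 100 in P10 organoids, and was 10.4-fold (8.31 to 13.1) and 11.5-fold (9.35 to 14.2) lower. FRZB, a related binder, had 182, 1 and 1 reads, and DKK3 had 94, 0 and 8. The exception, named after its values were seen, was SFRP2, with 90, 188 and 644 reads, which was 2.73-fold (2.11 to 3.55) and 7.17-fold (5.75 to 9.05) higher. Under quantile normalisation the number lower was 8 of 11 in P5 and 6 of 11 in P10 organoids. The median log2 ratio of the list was -2.61 in P5 and -3.52 in P10 organoids.

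RSPO1 was detected only in intestine, with 25 reads (1.41 CPM) there and 0 in muscle, P5 and P10 organoids. The floor of 3 reads is a level of 0.221 CPM in P5 and 0.169 CPM in P10 organoids, and the upper Wilson limits of 0 reads are 0.282 and 0.217 CPM. Against the floor, RSPO1 was at least 6.38-fold lower at P5 and at least 8.31-fold lower at P10. The exact intervals reach down to 4.81-fold and 6.27-fold. This call is close to what the depth can show, since it was lost in P5 organoids with a floor of 10 reads (log2 -0.94) and in P10 organoids under quantile normalisation (log2 -0.95).

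RSPO3, the R-spondin with more reads here, had 413 reads in intestine (23.2 CPM), 1185 in muscle (91.7 CPM), 1 at P5 (0.0735 CPM) and 4 at P10 (0.226 CPM). Both tissues held it and both organoid libraries were nearly empty of it. The ratio to intestine was 316-fold lower in P5 organoids, from 1 read, with an interval of 56.4 to 12510, and 103-fold lower in P10 organoids (39.9 to 380). The organoid libraries did not differ from each other beyond counting error.

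The related RSPO2 was also higher in both tissues than in the organoids, with 162 reads in intestine, 554 in muscle, 8 at P5 and 1 at P10. It was 15.5-fold lower in P5 organoids than in intestine (7.68 to 36.5).

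Receptors of these ligands lay on both sides of intestine. Of 18 receptors and receptor regulators compared, 5 were lower and 2 higher in P5 organoids, and 6 were lower and 4 higher in P10 organoids, with median log2 ratios of 0.16 and -0.18. Those lower were 27.8% and 33.3% of the list, near the 23.7% and 28.2% of all genes. Those higher were 11.1% and 22.2%, beside 22.8% and 26.2% of all genes. LGR4, a receptor of R-spondins named after its values were seen, had 1764 reads in intestine, 1975 in P5 and 1532 in P10 organoids, 1.46-fold higher (1.37 to 1.56) and 1.15-fold lower (1.07 to 1.23). RNF43, the membrane enzyme that removes Wnt receptors and that R-spondins block, had 411, 1398 and 1918 reads, and was 4.45-fold (3.98 to 4.98) and 4.68-fold (4.20 to 5.22) higher in the organoids. ROR2, a receptor of WNT5A, had 339, 17 and 11 reads. FZD1, a Frizzled receptor, had 82, 4 and 24.

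Wnt feedback targets are genes that Wnt signalling switches on. Of 8 compared, 5 were lower and 2 higher in P5 organoids, beside 23.7% and 22.8% of all genes. In P10 organoids 3 were lower and 2 higher, beside 28.2% and 26.2%. The median log2 ratio of the list was -1.77 in P5 and 0.12 in P10 organoids. AXIN2, a brake on the pathway, had 85 reads in intestine, 200 in P5 and 477 in P10 organoids, and was 3.08-fold (2.37 to 4.01) and 5.63-fold (4.46 to 7.17) higher. TCF7, a transcription factor that T cells also express, had 307, 30 and 89 reads, and LEF1, a relative of it, had 89, 19 and 1. NKD2, the other target higher at both passages, had 117, 209 and 808. At P10 NKD1, APCDD1 and TNFRSF19 were within 2-fold of intestine. These last 4 targets were named after their values were seen. For the machinery that releases Wnt proteins, 1 of 2 genes was lower in each organoid library, beside 23.7% of all genes at P5 and 28.2% at P10. This was PORCN, with 30 reads in intestine, 4 in P5 and 5 in P10 organoids, and its P10 call was lost under quantile normalisation. WLS had 592, 539 and 884 reads and stayed within 2-fold.

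**Figure D3:**
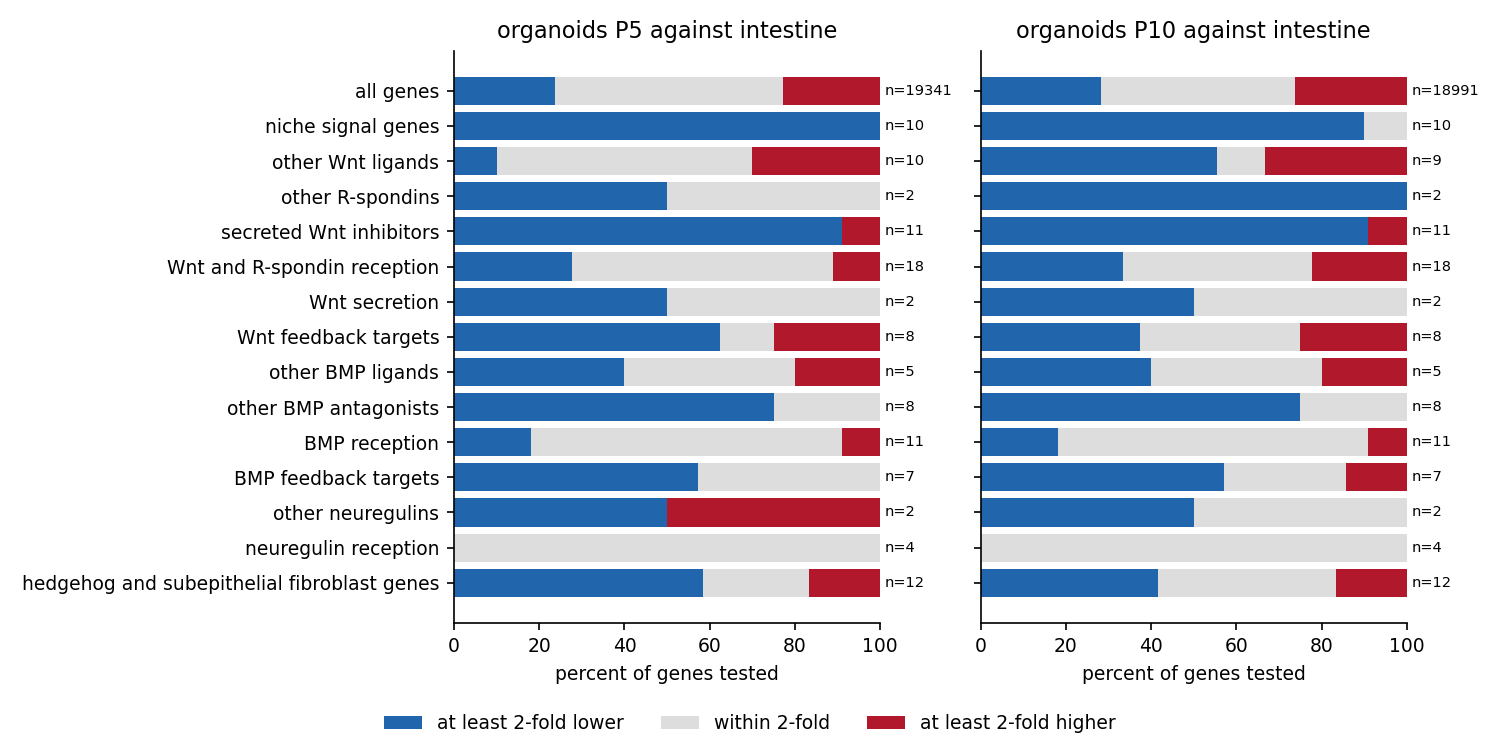
Share of compared genes at least 2-fold lower, within 2-fold and at least 2-fold higher than intestine, in percent, for all genes, the 10 niche signal genes and 13 wider lists, at P5 (left) and P10 (right), where n is the number compared. All 10 niche signal genes are lower at P5 and 9 at P10. The 4 genes listed under neuregulin reception, which are the ERBB receptor family with EGFR, stay within 2-fold.

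The antagonist GREM1, which binds BMP ligands near the crypt base, gave the widest ratio of the 10 genes. It had 1616 reads in intestine (90.9 CPM), 0 in muscle, 1 at P5 (0.0735 CPM) and 1 at P10 (0.0564 CPM). Intestine stood alone, and muscle and the organoids could not be told apart. From single reads, the ratio was 1236-fold lower in P5 organoids (222 to 48862) and 1612-fold lower in P10 organoids (289 to 63703). Among genes with 1000 or more reads in intestine, only 2.35% were at or below 3 reads in both organoid libraries.

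BMP4, a BMP ligand of the mesenchyme of the villus and crypt, had 2565 reads in intestine (144 CPM), 467 in muscle (36.2 CPM), 370 at P5 (27.2 CPM) and 123 at P10 (6.94 CPM). It was present in all 4 libraries, and each neighbouring pair in that order differed beyond counting error. BMP4 was 5.30-fold lower in P5 organoids (4.75 to 5.93) and 20.8-fold lower in P10 organoids (17.4 to 25.1).

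BMP5, another ligand of this family, had 621 reads in intestine (34.9 CPM), 356 in muscle (27.6 CPM), 17 at P5 (1.25 CPM) and 4 at P10 (0.226 CPM). The tissues were close to each other and the organoids far below them. BMP5 was 27.9-fold lower in P5 organoids (17.3 to 48.3) and 155-fold lower in P10 organoids (60.2 to 570).

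Of 8 other BMP antagonists compared, 6 were lower and 0 higher at each passage, with median log2 ratios of -1.98 and -2.98. Over all genes, 23.7% were lower and 22.8% higher at P5, and 28.2% and 26.2% at P10. Under quantile normalisation 4 of 8 were lower at each passage. BMPER, which modulates BMP ligands outside the cell, had 158 reads in intestine, 0 in P5 and 3 in P10 organoids. FST, which binds activins and BMPs, had 70, 11 and 0.

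Of 5 other BMP ligands compared, 2 were lower and 1 was higher at each passage. At P5 23.7% of all genes were lower and 22.8% higher, and at P10 28.2% and 26.2%. BMP3 had 93 reads in intestine, 4 in P5 and 0 in P10 organoids. BMP7 had 30, 159 and 582 reads, and was 6.93-fold (4.67 to 10.6) and 19.5-fold (13.5 to 29.1) higher in the organoids, the opposite of BMP4 and BMP5. BMP2, named after its values were seen, had 1460, 1967 and 808 reads and stayed within 2-fold of intestine in both organoid libraries.

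BMP receptors and SMADs were mostly within 2-fold, 8 of 11 at each passage. Lower were 18.2% of the list at each passage, beside 23.7% of all genes at P5 and 28.2% at P10. Higher were 9.09%, beside 22.8% and 26.2%. ACVRL1, a receptor known for its role in blood vessels, had 413 reads in intestine and 0 in both organoid libraries. SMAD9, a transducer of BMP signals, had 270, 6 and 5 reads. SMAD1, another transducer, was 2.09-fold and 2.02-fold higher, just past the threshold, and fell short of it under quantile normalisation and under the TMM and upper-quartile scalings of edgeR.

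Of 7 BMP feedback targets, 4 were lower and 0 higher in P5 organoids, and 4 were lower and 1 higher in P10 organoids. The shares over all genes were 23.7% lower and 22.8% higher at P5, and 28.2% and 26.2% at P10. ID2, which blocks differentiation factors and responds to BMP, had 2808 reads in intestine, 998 in P5 and 186 in P10 organoids, and was 2.15-fold lower at P5 and 15.1-fold lower at P10 (13.0 to 17.6). ID4, its relative, had 213, 10 and 0 reads, and the inhibitory SMAD7 had 191, 64 and 14. Only genes past 2-fold in both organoid libraries in 1 direction could be named, so these 3 genes do not stand for the list. Between the passages, 4 of the 7 targets were lower at P10, beside 20.8% of all genes, namely ID1, ID2, ID4 and SMAD7. BMP4 was lower at P10 too. SMAD6 and BAMBI, 2 of the 7, were higher at P10 than at P5, beside 17.2% of all genes. ID3 stayed within 2-fold of intestine at both passages. Whether the targets follow BMP4 was not tested.

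NRG1, a ligand of ERBB receptors, had 604 reads in intestine (34.0 CPM), 4 in muscle (0.310 CPM), 27 at P5 (1.99 CPM) and 24 at P10 (1.35 CPM). Intestine was far above the rest, and the organoid libraries did not differ from each other beyond counting error. NRG1 was 17.1-fold lower in P5 organoids (11.6 to 26.2) and 25.1-fold lower in P10 organoids (16.7 to 39.5).

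The receptors of the ERBB family, namely ERBB2, ERBB3, ERBB4 and EGFR, were all retained, with 0 of 4 past 2-fold at either passage. Among all genes, 23.7% were lower and 22.8% higher at P5, and 28.2% and 26.2% at P10. ERBB3, which binds NRG1 and is named after its values were seen, had 1447 reads in intestine, 2062 in P5 and 2496 in P10 organoids, 1.86-fold (1.74 to 1.99) and 1.73-fold (1.62 to 1.85) higher. NRG3, another neuregulin chosen after its values were seen, had 168, 258 and 270 reads. NRG3 was 2.01-fold higher at P5 (1.65 to 2.45), just past the threshold, and 1.61-fold higher at P10 (1.32 to 1.97). NRG2, the only other neuregulin compared, had 27, 6 and 11 reads and was called lower at both passages.

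FOXL1 had 119 reads in intestine (6.69 CPM) and 0 in muscle, P5 and P10 organoids. As for RSPO1, only intestine had a read. Against the floor, the level was at least 30.3-fold lower in P5 and at least 39.6-fold lower in P10 organoids, with exact intervals that reach down to 24.3-fold and 31.7-fold.

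Hedgehog ligands of the epithelium act on the cells beneath it, where FOXF1 and FOXF2 are expressed, and PDGFRA marks the FOXL1-expressing cells. Of 12 such genes, 7 were lower and 2 higher in P5 organoids, beside 23.7% and 22.8% of all genes. In P10 organoids 5 were lower and 2 higher, beside 28.2% and 26.2%. FOXF1 had 307 reads in intestine and FOXF2 had 148, with 0 in both organoid libraries. PDGFRA, a receptor of fibroblasts, had 1242, 15 and 0 reads. The ligands of the epithelium were present in the organoids. IHH, a hedgehog ligand, had 504, 1033 and 829 reads, and PDGFA, a ligand of PDGFRA, had 443, 1154 and 2627. IHH and PDGFA, named after their values were seen, were 2.68-fold (2.41 to 2.99) and 3.40-fold (3.05 to 3.81) higher in P5 organoids. In P10 organoids IHH was 1.65-fold higher (1.47 to 1.85), under the threshold, and PDGFA 5.95-fold (5.37 to 6.59).

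Taking intestine as the reference without any scaling between libraries, 3 of the 10 genes had 10 or more reads in intestine and 3 or fewer in both organoid libraries, namely RSPO1, GREM1 and FOXL1. The share over all genes with 10 or more reads in intestine was 9.15%. By reads in intestine, in classes set after the reads were seen, this held for 1 of 2 of the genes with 10 to 99 reads (RSPO1) beside 20.8% of all such genes. It held for 1 of 6 with 100 to 999 reads (FOXL1) beside 4.20%, and for 1 of 2 with 1000 or more (GREM1) beside 2.35%. RSPO3 missed this count by 1 read in P10 organoids.

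**Figure D4:**
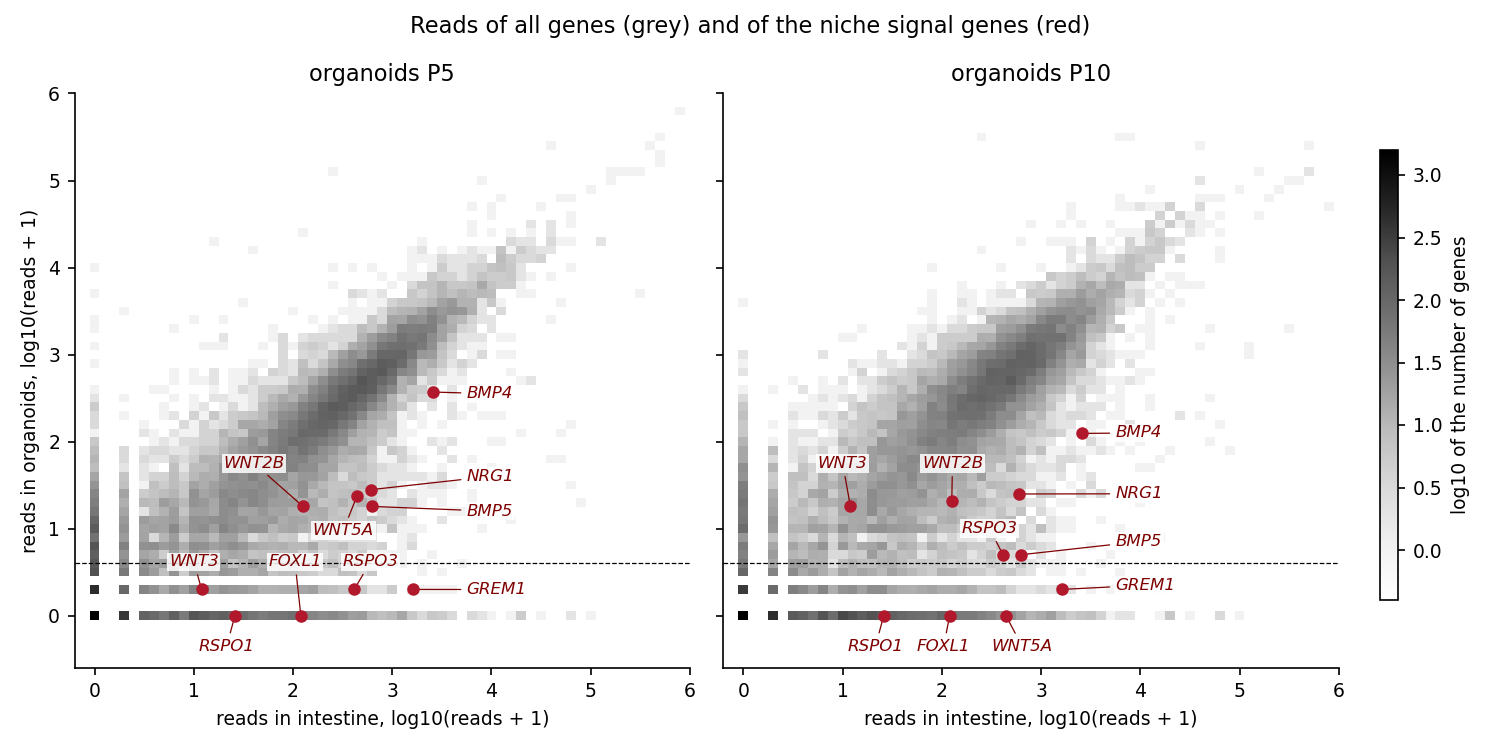
Reads of every gene in intestine (x axis) against P5 organoids (left) and P10 organoids (right), both as log10(reads + 1), with grey shade for the number of genes and red points for the niche signal genes, and a dashed line at 3 reads. GREM1, with 1616 reads in intestine, lies on the line of 1 read in both panels.

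The other cell types of the wall were checked by their markers, since fewer cells of a type and less RNA per cell cannot be told apart in bulk RNA. The summed level of 10 fibroblast markers was 1124 CPM in intestine, 1334 in muscle, 6.99 at P5 and 4.46 at P10. All 10 were above the floor in both tissues, 5 were in P5 and 2 in P10 organoids, and COL3A1 (8351 reads in intestine), DCN (3351) and LUM (915) were at 0 in both organoid libraries. The 10 smooth muscle markers summed to 3731, 2919, 65.6 and 64.4 CPM in the same order, the 8 endothelial markers to 66.2, 63.0, 4.85 and 3.67, and the 10 leukocyte markers to 348, 28.6, 5.29 and 5.58. The near-equal smooth muscle sums of the 2 tissues hide unlike genes. In intestine 8 of the 10 were higher than in muscle, beside 53.4% of all genes, with a median log2 ratio of 3.76. The 2 that were lower, beside 12.5%, were DES and SYNPO2. Markers of epithelium went the other way, with 3172, 27.2, 12534 and 10208 CPM. Of these 10, 9 were higher than in intestine at P5 and 6 at P10, beside 22.8% and 26.2% of all genes. At each passage 0 were lower, though KRT20 stood at 52.7% of its intestinal level at P10. Enteric neuron and glia markers summed to 45.9, 133, 9.12 and 33.6 CPM, of which UCHL1 made up 31.5 CPM at P10. Of the 8 that could be compared with intestine, 7 were lower at P5 and 6 at P10, beside 23.7% and 28.2% of all genes. Their median log2 ratios were -2.71 and -3.09. Skeletal muscle markers were at 41093 CPM in muscle and at most 3.43 CPM elsewhere. The fibroblast, smooth muscle, endothelial and leukocyte lists were lower in the organoids along with the niche signals, and their part in the ratios was not tested.

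**Figure D5:**
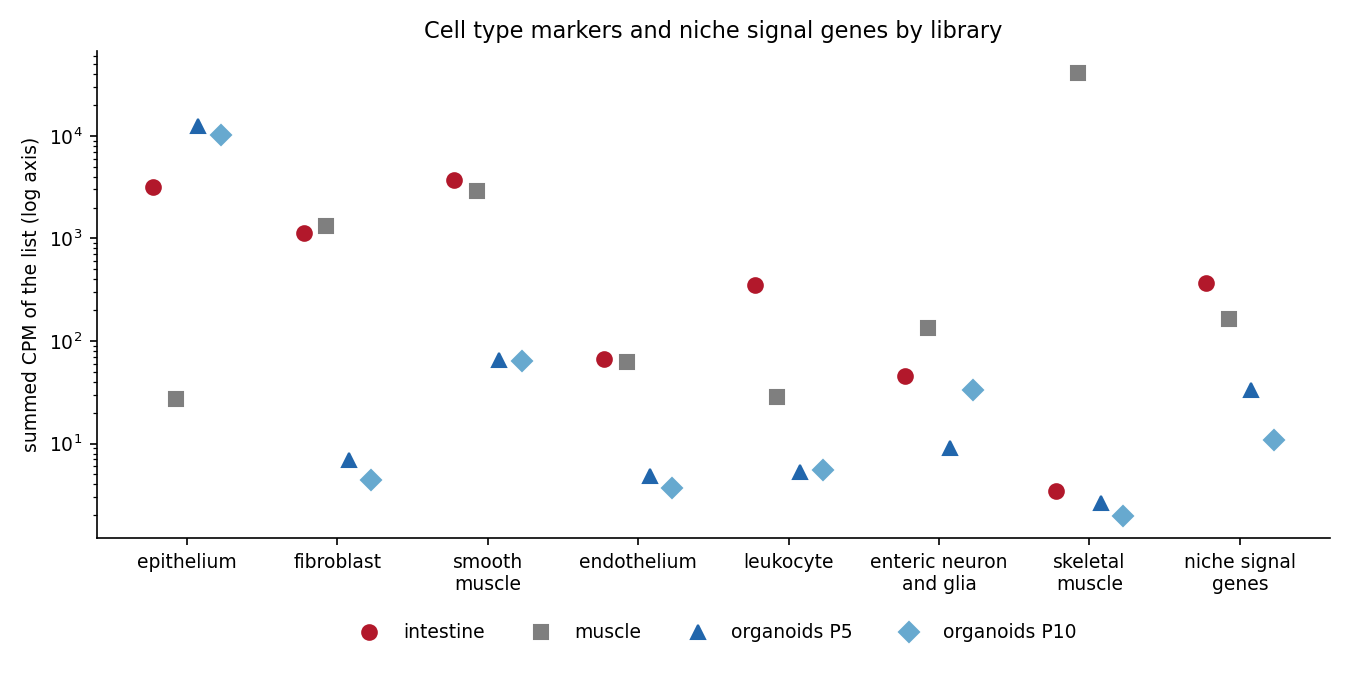
Summed CPM of each cell type marker list and of the 10 niche signal genes in the 4 libraries, on a log axis. Fibroblast markers stand at 1124 CPM in intestine against 6.99 and 4.46 in the organoids, and the niche signal genes at 368 against 33.6 and 10.9.

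The 10 genes were not retained in equal shares. P5 organoids held 18.9% of the intestinal level of BMP4, 17.8% of that of WNT2B, 6.80% for WNT5A, 5.84% for NRG1 and 3.58% for BMP5, whereas RSPO3 stood at 0.316% and GREM1 at 0.0809%. The fibroblast markers together stood at 0.621% in P5 organoids, and the highest single one, COL6A3, at 5.23% (3.07 to 8.36). The intervals of BMP4 (16.9 to 21.0%) and WNT2B (3.38- to 9.96-fold lower than intestine) lay above that of COL6A3, while those of WNT5A (4.27 to 10.3%), NRG1 (3.82 to 8.59%) and WNT3 (0.276 to 81.8%, from 1 read) overlapped it. GREM1, with an upper limit of 0.451%, was below the sum of the list. RSPO3, RSPO1 and FOXL1 could not be placed against that sum, since their upper limits were 1.77%, 20.8% and 4.12%. Among the smooth muscle markers SMTN was the highest, at 16.4%.

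In P10 organoids WNT2B stood at 16.0%, BMP4 at 4.81%, NRG1 at 3.98%, RSPO3 at 0.971%, BMP5 at 0.646% and GREM1 at 0.0620%. WNT3 stood at 155%, with an interval of 68.5 to 366 that includes its intestinal level. The fibroblast markers together stood at 0.396%, with FBLN1 the highest at 13.1% (10.2 to 16.8), and SMTN stood at 55.3%. The interval of WNT2B (9.47 to 25.8%) overlapped that of FBLN1, while that of BMP4 (3.98 to 5.76%) lay below it.

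Between the passages, 7 of the 10 genes could be compared, the rest being at or below the floor in both organoid libraries. In P10 organoids 3 of the 7 were lower than in P5 organoids, beside 20.8% of 17798 genes, and 1 was higher, beside 17.2%. BMP4 was 3.92-fold lower at P10 (3.19 to 4.85), BMP5 was 5.54-fold lower (1.81 to 22.6) and WNT5A had a log2 ratio of -3.32 with its 0 reads at P10 set to the floor (exact interval up to -2.91). WNT3 was 13.0-fold higher, from 17 reads against 1 (2.04 to 545). WNT2B had a log2 ratio of -0.15 (-1.16 to 0.88) and NRG1 of -0.55 (-1.41 to 0.30), so differences of up to about 2-fold either way remain possible for WNT2B. Passage and culture are each represented by 1 library, and cannot be told apart.

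The control tissue, muscle, also holds stroma, with fibroblast markers that sum to a level near that of intestine. Single markers differed, with 3 of the 10 higher and 3 lower in intestine than in muscle, beside 53.4% and 12.5% of all genes. In intestine 8 of the 10 genes were higher than in muscle, beside 53.4% of 18950 genes, and 1 was lower, beside 12.5%. The median log2 ratio was 2.30, against 1.14 over all genes. The RNA of 1 ribosomal gene, RN18S1, took 23.6% of the muscle reads and 4.08% of the intestinal reads. With RN18S1 left out of the library totals, 8 of the 10 genes were still called higher in intestine, beside 45.8% of all genes. The median over all genes was then 0.81.

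The scale mattered more here than for the organoids. Of all calls between intestine and muscle, 81.1% were higher in intestine on library totals, but 43.7% under quantile normalisation, 55.8% under TMM and 50.6% under upper-quartile scaling. The median of all genes was then -0.19, 0.13 and -0.04. Of the calls between organoids and intestine, 49.0% at P5 and 48.2% at P10 were higher, and 59.5% and 60.4% under quantile normalisation.

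Against the floor, GREM1 was at least 391-fold, FOXL1 at least 28.8-fold and RSPO1 at least 6.06-fold higher in intestine than in muscle. Their exact intervals reach down to 318-fold, 23.1-fold and 4.57-fold, and the call of RSPO1 was lost under quantile normalisation (log2 0.72) and with a floor of 10 reads (log2 0.86). NRG1 was 110-fold higher (42.6 to 404) and WNT2B 11.4-fold (5.59 to 26.9). For BMP4 the ratio was 3.99-fold (3.62 to 4.41) and for WNT5A 2.82-fold (2.29 to 3.49). Neither call held under every scaling. The log2 ratio of BMP4 was 0.98 under TMM and 0.82 under upper-quartile scaling, and that of WNT5A was 0.27 under quantile normalisation, 0.48 under TMM and 0.32 under upper-quartile scaling. WNT3 was at least 2.66-fold higher against the floor from 11 reads (exact interval from 1.82-fold), but its log2 ratio was -0.63 under quantile normalisation. RSPO3 was 3.95-fold lower in intestine (3.53 to 4.43), the only gene of the 10 with more in muscle on library totals. BMP5 was 1.27-fold higher (1.11 to 1.45), and turned to the other side under quantile (-0.62), TMM (-0.67) and upper-quartile (-0.83) scaling.

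The genes most like each niche signal gene were sought among 13183 genes with 50 or more reads, by the distance between their log2(CPM + 0.5) values, centred over the 4 libraries. Nearest to RSPO3 were SYNPO2 (distance 0.31), SYNPO (0.49) and DPT (0.58). SYNPO2 is in the smooth muscle list, but 8 of the 10 genes of that list were higher in intestine than in muscle, unlike RSPO3 and SYNPO2. SYNPO2 had 3451 reads in intestine, 7823 in muscle, 46 at P5 and 98 at P10. Nearest to BMP5 were LHFPL6 (0.18), SMARCA1 (0.23) and ZEB2 (0.32), the last a transcription factor of mesenchymal cells.

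For GREM1 the nearest were the immunoglobulin genes IGHG1 (0.17) and IGHE (0.18) and the lysozyme gene LYZ2 (0.22), and for FOXL1 they were CLEC4A (0.01), SMIM32 (0.04) and P2RY13 (0.06). Of these, IGHG1, IGHE and LYZ2 had between 1400 and 1703 reads in intestine and 0 in the other libraries. CLEC4A, SMIM32 and P2RY13 had between 115 and 125 in intestine and 0 in the others. For genes with nearly no reads outside intestine, such as GREM1 and FOXL1, a small distance reflects little more than a like level in intestine. The immunoglobulin genes are known from B cells and plasma cells, not from stroma.

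Among the genes close to WNT2B were SAMHD1 (0.28) and VWA2 (0.29). NRG1 was nearest to MOGAT2 (0.36), F10 (0.43) and APOH (0.54), MOGAT2 being an enzyme of fat absorption in enterocytes. BMP4 was nearest to GLIPR2 (0.34), ST6GAL1 (0.39) and RSAD2 (0.45), and WNT5A to MRC1 (0.58), CYP4V2 (0.67) and RIPOR2 (0.68), MRC1 being a receptor of macrophages. Each distance rests on 4 values, 1 from each library, and describes these libraries only.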

How the data were processed

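The authors used Bowtie2 to align the QuantSeq 3′ reads and Bedtools coverage to count them, reads with several alignments included, and deposited whole-number counts per gene symbol, without normalisation. The genome build and use of strand are not given in the sources used here, so no coordinates are printed, and reads of overlapping or near-identical genes cannot be separated. Of 29792 rows, 1805 have a symbol that is not theirs alone, and rows were not merged. All 10 niche signal genes have 1 row and a RefSeq entry in the table of ARS-UCD2.0.

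From the counts, CPM, ratios, 95% Wilson intervals of levels and 95% Clopper-Pearson intervals of ratios were computed. The study names quantile normalisation with edgeR. That step gives 1 read unequal values in the 4 libraries, which matters for genes with few reads, so the library total was the main scale and quantile normalisation an alternative. Libraries with 3 reads or fewer were set to 3 reads (0.169 CPM in intestine and P10, 0.221 in P5 and 0.232 in muscle) for calls of at least 2-fold, and no ratio was taken where both were at this floor. Folds against 0 reads are bounds against this floor, which the exact intervals can undercut, and folds against 1 to 3 reads use the reads themselves. With 1 library per group no test was run.

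The genes and lists were chosen with earlier results of these data known. Of 180 listed genes other than the 10, 177 matched. From each list, at most 3 genes past 2-fold in both organoid libraries in 1 direction, with 50 or more reads in the higher library, could be named, along with the 3 nearest genes of each niche signal gene with 50 or more reads. For WNT2B, 1 of these is not reported here. There were 11 alternative settings. The code was tested on simulated data. Normalisation factors came from edgeR 4.0.16 in R 4.3.3, and the rest was done in Python 3.11.15 (scipy 1.17.1, pandas 2.3.3, numpy 2.4.6), with plots from matplotlib 3.10.9.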

Additional observations from a re-analysis of the deposited data

Results flagged for a closer look

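WNT3 stood out because its ratio to intestine pointed in opposite directions at the 2 passages, with a log2 ratio of -1.49 in P5 organoids (1 read, set to the floor of 3) and 0.63 in P10 organoids (17 reads). Whether the passages differ was not tested, since each has 1 library, and the P10 interval of -0.55 to 1.87 includes 0.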

How the results depend on the processing

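Of 37 ratios of the 10 genes, 32 kept their direction in all 11 alternative settings, the exceptions being WNT3 and BMP5 between intestine and muscle, WNT3 between P5 organoids and intestine, and WNT2B and RSPO3 between the passages. Of 19 ratios to intestine past 2-fold, 16 were past it in every setting, the exceptions being WNT3 at P5 and RSPO1 at both passages. The number of genes called higher in intestine than in muscle was 8 on library totals and 5 under quantile normalisation, 5 under TMM and 5 under upper-quartile scaling. WNT3 and WNT5A were lost under each of these, RSPO1 under quantile normalisation, and BMP4 under TMM and upper-quartile scaling. The log2 ratio of WNT3 turned to 0.25 between P5 organoids and intestine with a floor of 10 reads, and to -0.63 between intestine and muscle under quantile normalisation and -0.32 with a floor of 10 reads, which raises the library with fewer reads. The cause of the other changes was not tested. Differences of RSPO1 and WNT3, with 25 reads or fewer in each library, are limited by depth. No paired analysis was possible because each group has 1 library and the labels carry no replicate numbers, and for the same reason no library could be left out.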
